A study of Homo sapiens with 8 samples.

Results

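The protease-activated receptors, tissue factor and the plasminogen activators were followed in LNCaP cells as 8 genes: the thrombin receptor F2R, its relatives F2RL1, F2RL2 and F2RL3, the tissue factor gene F3, the urokinase gene PLAU, the urokinase receptor gene PLAUR and the tissue plasminogen activator gene PLAT. Each probe was assigned through the RefSeq accession that the array files give for it, and the 8 genes had 9 of the 42405 probes. PLAU had 2 probes and each of the other genes had 1. Signals of 6 of the 8 genes passed the filter on dim probes (a mean log2 of at least 3), among 28876 genes that could be tested, and F2RL2 and F3 did not. LNCaP is an established androgen-sensitive human prostate cancer line, grown from a lymph node metastasis. The cells had been transfected for 72 h with siRNA at 30 nM, either siGATA2, which targets the transcription factor gene GATA2, or siControl, a scrambled siRNA. Each group had 4 one-colour arrays of total RNA, described in the series as biological replicates. One cell line and a transient transfection limit what the groups can stand for, and the methods of the study name a single purchased siRNA against GATA2.

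Protease-activated receptors are G protein-coupled receptors that are switched on when a protease cuts their outer end and frees a tethered ligand. Thrombin, formed when tissue factor starts coagulation, cuts the receptors encoded by F2R, F2RL2 and F2RL3 (PAR1, PAR3 and PAR4), whereas trypsin-like proteases cut the receptor encoded by F2RL1 (PAR2). Urokinase, held at the cell surface by its receptor, and tissue plasminogen activator turn plasminogen into plasmin, which dissolves fibrin and breaks down matrix, and in prostate cancer cells both systems have been linked to migration and invasion.

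Among the 6 members tested, the thrombin receptor F2R and the protease gene PLAT were lower after siGATA2, and no member was higher by the test used (limma, Benjamini-Hochberg adjustment over all 28876 genes, called at an adjusted p under 0.05). F2R fell by 1.01 on the log2 scale, or 2.01-fold. The size of the PLAT difference is uncertain, because on no siGATA2 array was its probe well above background. It ranged from -3.49 to -0.79 on the log2 scale among alternative ways of processing. F2RL1, F2RL3, PLAU and PLAUR did not pass the test. Of all genes tested, 14.1% were called lower and 12.3% higher, so the 2 called among 6 members stand against a background in which 26.4% of genes were called in either direction. At 2-fold or more, 7.09% of genes were called lower and 4.51% higher. The median log2 fold change was -0.33 over the 6 members and 0.09 over all genes. PLAT passed the filter on dim probes only through its siControl level, so the count and median over members are a description.

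Unless said otherwise, values are log2 of the processed signal (background-subtracted by the scanner software and quantile-normalised here), given for arrays 1 to 4 of a group in that order, and a fold change is siGATA2 minus siControl. Between 24072 and 36735 probes per array were well above background, by the flag that the scanner software sets for a spot (56.8 to 86.6%), with the lowest numbers on siControl arrays 3 and 1. The 7 probes for the E1A spike-in, RNA added at labelling, averaged a log2 of 11.13 on siControl array 1 before normalisation, against 13.45 to 13.83 elsewhere. All 9 markers of LNCaP and prostate luminal cells were well above background on all 8 arrays, as were the endothelial markers CDH5 (means 8.83 after siGATA2 and 8.77) and VWF (8.73 and 9.68, limma adjusted p = 0.00154), whereas PECAM1 and TEK, which also mark endothelial cells, were not on any array. The mean of the LNCaP markers was 14.41 to 15.04 after siGATA2 and 15.14 to 15.22 in siControl cells, that of the endothelial markers 5.15 to 5.51 and 5.47 to 5.69 (2 of 5 measured on all arrays), that of the fibroblast markers 4.83 to 5.44 and 5.98 to 6.16 (1 of 4), and that of the leukocyte markers 7.22 to 7.46 and 6.81 to 7.18 (2 of 4). Their part in the results was not tested. The GATA2 probe itself read 12.61, 12.54, 11.57 and 11.40 in the arrays labelled siGATA2 and 11.74, 11.28, 11.09 and 11.29 in those labelled siControl, a difference of 0.68 (SE 0.31, limma adjusted p = 0.155). The siGATA2 arrays were thus not lower for the targeted gene at this probe, and every direction reported rests on the labels. GATA2 was called higher with array weights (0.80, adjusted p = 0.0312) and with the title letters described next as a block (0.47, adjusted p = 0.0264), and its difference was 0.03 with spike-in scaling. By other assays, which were not analysed here, the study reports that GATA2 protein was very markedly reduced after siGATA2 in LNCaP cells. It also reports that some of the genes lower on the arrays were lower by qRT-PCR or Western blot. The letter in each sample title (siGATA2 arrays 1 to 4 carry A, B, E and F, and siControl arrays B, D, F and G) is not explained by the labels, but GATA2, which was higher in all 3 arrays with A or B than in the other 5, and some members followed it.

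**Figure D1:**
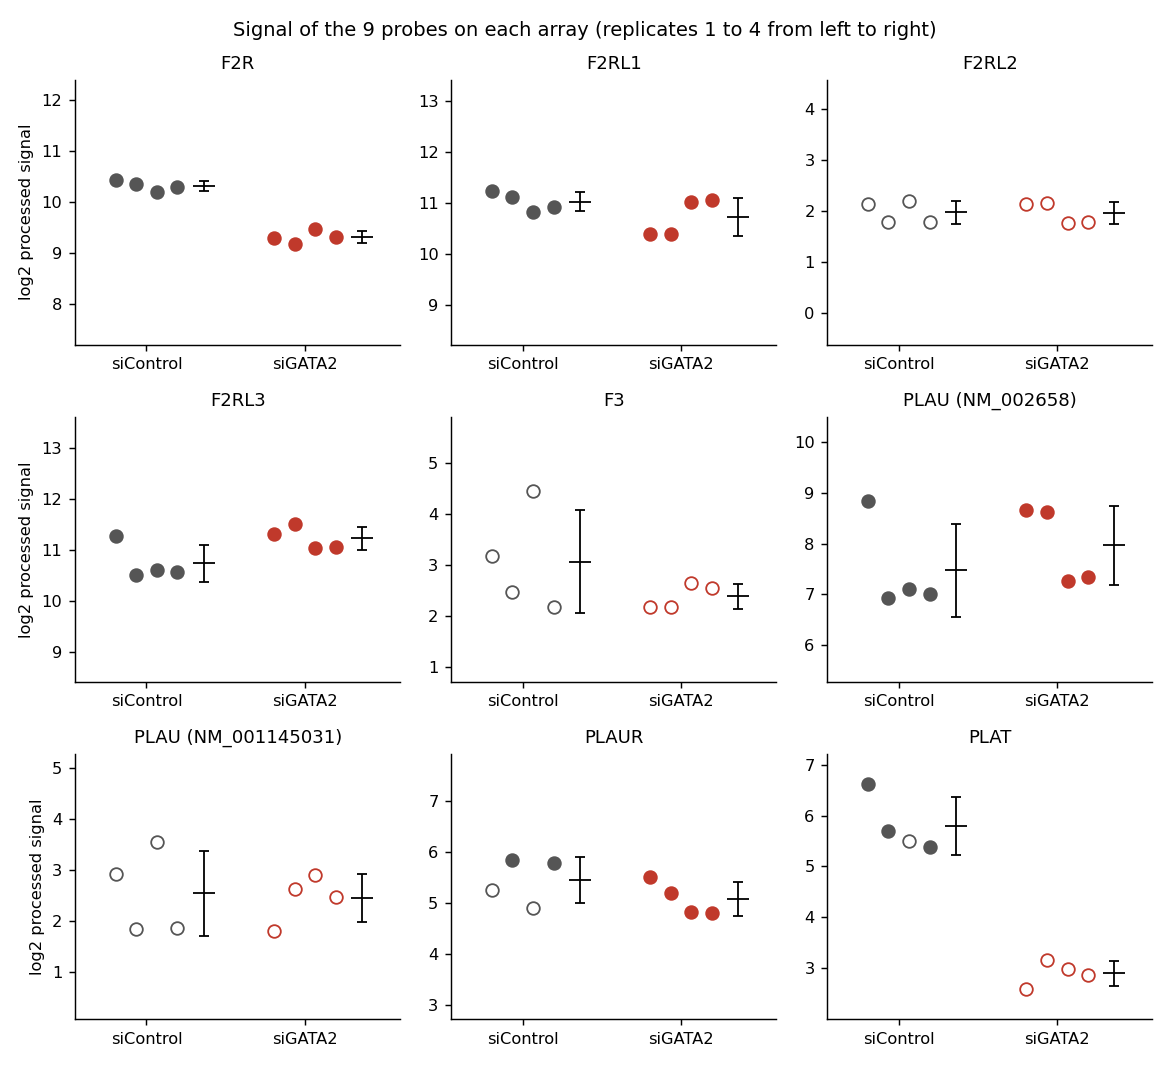
Log2 processed signal of the 9 probes in each array (vertical axis) for siControl and siGATA2, with the mean and SD of 4 arrays beside the points. Open circles are arrays where the probe was not well above background. F2R and PLAT separate the groups completely, while the other probes overlap.

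Of the 4 receptors, F2R had the closest replicates and the only difference that passed the test. The siGATA2 arrays read 9.29, 9.17, 9.47 and 9.32, and the siControl arrays 10.43, 10.36, 10.20 and 10.29. Every siGATA2 array was below every siControl array, a separation that 32.5% of all genes tested also had in one direction or the other. The means were 9.31 ± 0.12 and 10.32 ± 0.10 (SD, n = 4 each), a fold change of -1.01 with a 95% confidence interval from -1.26 to -0.76 (limma adjusted p = 0.000343). An exact two-sided permutation test over the 8 arrays gave p = 0.0286, the smallest that 4 against 4 arrays allow. F2R was well above background on all 8 arrays, and both title letter sets showed the difference, at -1.20 for letters A and B and -0.89 for letters D to G. The set of A and B holds only 1 siControl array, array 1, which had the low spike-in signal. In bulk RNA, fewer cells that express a gene and less of its RNA per cell cannot be told apart. F2R was lower in 25 of 25 alternative ways of processing, from -1.57 to -0.93, and passed the test in 23 of them. The call was lost at -1.57 when arrays were scaled to the spike-in (adjusted p = 0.0670) and at -0.94 without normalisation (adjusted p = 0.0528). With spike-in scaling but without siControl array 1 it was -1.13 (adjusted p = 0.00488). Since the fold lies close to 2 and crosses it among the alternatives, whether F2R counts as a 2-fold change depends on the processing. The study lists F2R among genes it chose on these same arrays, so its fall is not independent evidence.

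F2RL1, the receptor for trypsin-like proteases, was well above background on all arrays, and its groups overlapped. It read 10.40, 10.39, 11.02 and 11.06 after siGATA2 and 11.24, 11.11, 10.82 and 10.93 in siControl cells. The 2 siGATA2 arrays with letters A and B were the lowest of the 8, and those with E and F lay within the siControl range. The fold change was -0.31 (95% interval -0.77 to 0.16, limma adjusted p = 0.307), an interval that leaves out a 2-fold change either way. That limit depends on the scaling. With spike-in scaling F2RL1 was -0.90 (SE 0.52, limma adjusted p = 0.375), and with the same scaling but without siControl array 1 it was -0.44 (limma adjusted p = 0.249). Within letters A and B the difference was -0.85, from 2 arrays and 1, and within D to G it was 0.09.

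F2RL3, a thrombin receptor best known from platelets, showed the opposite sign without passing the test. Its siGATA2 arrays read 11.32, 11.51, 11.04 and 11.05, against 11.27, 10.51, 10.60 and 10.56 in siControl arrays. All siGATA2 arrays were above siControl arrays 2 to 4, and siControl array 1 lay inside the siGATA2 range. The fold change was 0.49 (95% interval 0.02 to 0.96, limma adjusted p = 0.117; exact permutation p = 0.0857). Without siControl array 1 it was 0.67 and passed (adjusted p = 0.0132), and it passed in 5 of 25 alternatives in all. With spike-in scaling it was -0.13 (adjusted p = 0.935), so its direction depends on the scaling. With the same scaling but without siControl array 1 it was 0.44 (adjusted p = 0.144). Spike-in scaling of all arrays moved the median of all genes from 0.09 to -0.43, and relative to these medians F2RL3 was 0.40 and 0.30, and F2R -1.10 and -1.14. Within letters A and B the difference was 0.14 and within D to G it was 0.49, and the 3 arrays lettered A or B were the highest of the 8. The mean of the platelet markers ranged from 6.57 to 7.05 in siGATA2 arrays and from 6.33 to 6.90 in siControl arrays, with 1 of 4 markers well above background on all 8 arrays. Their part in the F2RL3 values was not tested.

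F2RL2, a thrombin receptor that acts mainly as a cofactor, was on no array well above background. Its means were 1.95 and 1.97, and it was not tested because it failed the filter. With no filter on dim probes the fold change was -0.02 (limma adjusted p = 0.944), a comparison of values at background.

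F3, which encodes the cell surface starter of coagulation, was likewise on no array well above background. Its values were 2.18, 2.18, 2.65 and 2.56 after siGATA2 and 3.17, 2.48, 4.45 and 2.18 in siControl cells. The highest of these, on siControl array 3, came from an intensity of 19.3 where the negative control spots had a median of 17.5. No level of F3 could therefore be given, nor a difference between the groups.

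The RefSeq promoter table used here held 6 of the members, with 7 windows (GRCh38.p14, the 250 bases before the start site), without F2R and PLAT. The windows shown are those of the 4 members among them that passed the filter. Which of the 2 PLAU windows belongs to the transcript measured by its probe was not tested. Capitals mark the letters searched on both strands: the GATA motif AGATAA or AGATAG or TGATAA or TGATAG, and the AP-1 motif TGAGTCA. F2RL1 lies at chr5:76818780-76819029 on the plus strand and F2RL3 at chr19:16888749-16888998 on the plus strand. PLAU, in the first of its 2 windows, lies at chr10:73910360-73910609 on the plus strand, and PLAUR at chr19:43670170-43670419 on the minus strand. Each sequence is written 5′ to 3′ on the strand of its gene.
F2RL1: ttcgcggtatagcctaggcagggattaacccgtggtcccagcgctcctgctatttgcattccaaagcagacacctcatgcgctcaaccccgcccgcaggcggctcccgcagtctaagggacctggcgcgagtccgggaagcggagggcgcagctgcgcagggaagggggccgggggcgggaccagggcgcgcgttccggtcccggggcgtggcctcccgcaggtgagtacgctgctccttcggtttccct
F2RL3: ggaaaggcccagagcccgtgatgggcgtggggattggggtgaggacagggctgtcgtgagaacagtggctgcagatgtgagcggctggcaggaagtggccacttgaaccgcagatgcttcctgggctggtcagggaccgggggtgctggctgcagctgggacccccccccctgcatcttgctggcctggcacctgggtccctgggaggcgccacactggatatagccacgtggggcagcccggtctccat
PLAU: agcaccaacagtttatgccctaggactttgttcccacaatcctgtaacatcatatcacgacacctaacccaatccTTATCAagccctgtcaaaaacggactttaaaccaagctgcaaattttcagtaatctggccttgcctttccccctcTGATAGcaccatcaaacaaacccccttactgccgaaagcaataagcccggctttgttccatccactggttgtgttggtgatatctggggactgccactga
PLAUR: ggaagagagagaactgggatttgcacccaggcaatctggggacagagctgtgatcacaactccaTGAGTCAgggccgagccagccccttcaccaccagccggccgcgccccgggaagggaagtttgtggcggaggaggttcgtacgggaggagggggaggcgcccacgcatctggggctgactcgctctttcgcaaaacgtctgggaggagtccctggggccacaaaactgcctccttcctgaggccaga
The windows of F2RL1 and F2RL3 held neither motif. The PLAU window held TGATAG at 100 to 95 bases before the start. It also held TGATAA, printed as its reverse complement TTATCA, at 175 to 170 bases before the start. The GATA letters occur in 22.3% of all 35116 promoter windows of this length, and the second PLAU window had none. The PLAUR window held TGAGTCA at 186 to 180 bases before the start, as did F3 at 210 to 204 and F2RL2 at 37 to 31, a motif found in 4.2% of all windows. A match of letters is a description, and no binding was measured here.

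PLAU, the gene of urokinase, was measured well above background on all 8 arrays by a probe with 10 spots, and varied more between arrays of a group than between the groups. The siGATA2 arrays read 8.66, 8.63, 7.26 and 7.34, and the siControl arrays 8.83, 6.94, 7.11 and 7.0. The 3 arrays whose titles carry A or B lay between 8.63 and 8.83, and the other 5 between 6.94 and 7.34, whatever the siRNA. The spots of one array differed far less, with an SD of 0.052 to 0.14. The group means of 7.97 ± 0.77 and 7.47 ± 0.91 (SD, n = 4 each) gave a fold change of 0.50 with a 95% interval from -0.73 to 1.72 (limma adjusted p = 0.525), too wide to say whether PLAU changed by 2-fold. Without siControl array 1 it was 0.96 (adjusted p = 0.128), and leaving out each array in turn gave 0.27 to 0.96. Within letters A and B it was -0.19 and within D to G 0.28. With the arrays lettered D to G alone, a choice made after the values were seen, it passed the test at 0.29 (adjusted p = 0.0461). The other PLAU probe, with 1 spot, was on no array well above background, with means of 2.45 and 2.54, and carries no level.

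**Figure D2:**
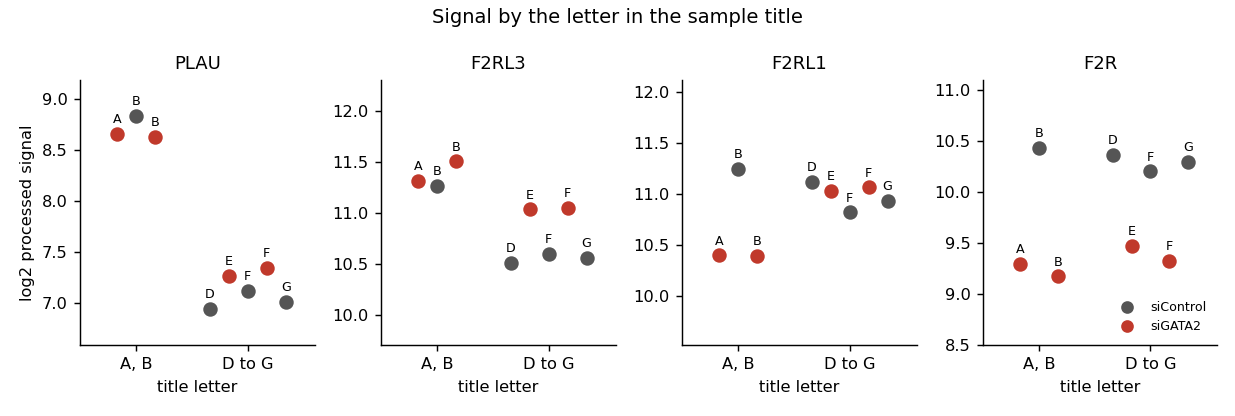
Log2 processed signal (vertical axis) of PLAU, F2RL3, F2RL1 and F2R by the letter in the sample title, letters A and B on the left and D to G on the right, coloured by siRNA. PLAU and F2RL3 were higher in all 3 arrays with A or B than in the 5 others. F2R was separated by siRNA in both sets, of which that of A and B held 1 siControl array.

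PLAUR, which anchors urokinase at the cell surface, was dim. It read 5.50, 5.20, 4.82 and 4.81 after siGATA2 and 5.26, 5.84, 4.89 and 5.78 in siControl cells, where arrays 1 and 3 were not well above background. The groups overlapped, and the fold change was -0.36 (95% interval -0.96 to 0.24, limma adjusted p = 0.347). Its sign turned with scaling to the 75th percentile, to 0.01, and without normalisation, to 0.04, so no direction is given. Within letters A and B the difference was 0.09, and within D to G it was -0.69.

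PLAT, the gene of tissue plasminogen activator, had the largest difference of the members. It read 6.62, 5.70, 5.49 and 5.38 in siControl cells and 2.59, 3.17, 2.98 and 2.86 after siGATA2, with no overlap. Before normalisation the linear intensities were 69.0, 58.3, 35.0 and 42.9 against 6.29, 9.79, 6.19 and 5.78. Well above background were 3 of 4 siControl arrays, all but array 3, and none of the siGATA2 arrays, where at most 3 of the 10 spots were. The measured fold change was -2.90 (95% interval -3.55 to -2.25, limma adjusted p = 0.000222; exact permutation p = 0.0286), but the siGATA2 level could not be measured. An approximate bound for it was taken from the dimmest probes that were well above background on each siGATA2 array. Against that bound the mean of all 4 siControl arrays was 5.43-fold higher. Since siControl array 3 was itself not well above background, 5.43-fold is not a firm minimum. With a siGATA2 mean of 2.90, PLAT passed the filter only through siControl, so a difference was built into its being tested. Its p-values and the lack of overlap are therefore a description and no support for a fall. The size of the difference ranged from -3.49 with spike-in scaling to -0.79 with the normexp background correction. That correction adds an offset to every spot and compresses dim signals. A filter that required a probe to be well above background on all arrays of a group removed it. Within letters A and B the difference was -3.75, and within D to G it was -2.60.

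**Figure D3:**
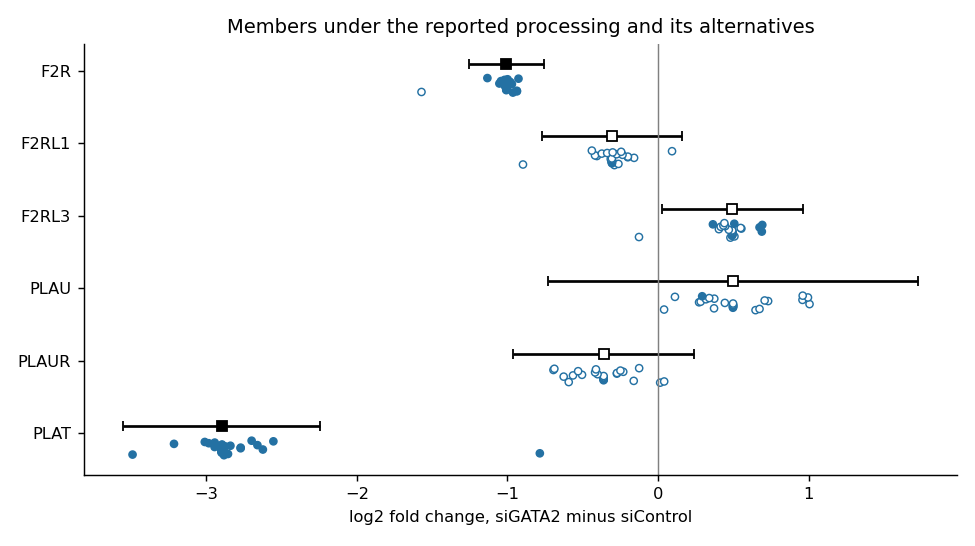
Log2 fold change (horizontal axis, siGATA2 minus siControl) of the 6 members tested. Squares with bars give the reported value and its 95% interval, circles the alternative ways of processing, and filled symbols an adjusted p under 0.05. F2R stays below 0 in every alternative, whereas circles of F2RL1, F2RL3 and PLAUR fall on both sides. PLAT stays below 0 in those that kept it, but it was tested only through its siControl level.

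Plasminogen activators are held back by serpins, and 5 of 8 genes on the inhibitor list could be tested. SERPINI1, whose product neuroserpin inhibits tissue plasminogen activator, was lower, and the other 4 tested did not pass (20% called, against 26.4% of all genes). SERPINI1 read 6.65, 6.67, 6.46 and 6.67 after siGATA2 and 9.37, 9.62, 9.43 and 9.60 in siControl cells. The fold change was -2.89 (SE 0.11, limma adjusted p = 1.27e-05), and it passed in all 25 alternatives. PLAT, the gene of neuroserpin's target, could not be measured after siGATA2 and was tested only through its siControl level. No joint fall of inhibitor and target can therefore be given. SERPINE2, a thrombin and urokinase inhibitor, had a fold change of -0.14 (adjusted p = 0.801). The list had a median of -0.14.

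Among 16 tested genes for plasminogen, its binding and the clearance of its activators, 1 was called lower and 4 higher (31.2%, against 26.4% of all genes), with a median of 0.21. MRC2, a collagen receptor that forms a complex with urokinase and its receptor, rose most. It read 10.05, 10.25, 9.97 and 9.86 after siGATA2 and 7.32, 6.44, 6.24 and 6.67 in siControl cells, where 3 of 4 arrays were well above background, a fold change of 3.37 (SE 0.23, adjusted p = 4.91e-05 by limma). VLDLR, an endocytic receptor of the lipoprotein receptor family, was higher by 1.50 (adjusted p = 0.000165) at its brightest probe. Its other probe, measured on 7 of 8 arrays, went the other way at -0.33 (adjusted p = 0.217 over all probes), the mean over both was 0.58, and the call at the brightest probe was lost with spike-in scaling. The other calls, named after their values were seen, were LRPAP1 at 0.65 (adjusted p = 0.0159), ITGB5 at 0.59 (adjusted p = 0.00181) and the plasminogen gene PLG at -0.65 (adjusted p = 0.0276), the last of them not well above background on 3 of the 8 arrays. With spike-in scaling LRPAP1 was -0.040 (adjusted p = 0.977) and ITGB5 -0.046 (adjusted p = 0.975), so their direction depends on the scaling. PLG lost its call with the replicate block (adjusted p = 0.0696) and was -0.11 with normexp.

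Coagulation factors and proteases that cut the receptors showed 9 genes lower and 3 higher of 28 tested (42.9% called, against 26.4% of all genes), with a median of -0.05. TFPI, which inhibits the complex of tissue factor and factor VIIa, fell by 2.57 on the log2 scale (SE 0.34, limma adjusted p = 0.00105). It read 12.67, 12.42, 11.37 and 11.59 after siGATA2 and 15.21, 14.33, 14.48 and 14.32 in siControl cells. PRSS1, a trypsinogen gene, fell by 1.88 (adjusted p = 3.02e-05; -1.07 with normexp), a value that may be shared with the near-identical genes PRSS2 and PRSS3, which were called lower as well. Named after their values were seen, the kallikrein genes KLK2 and KLK4, whose secreted proteases can cut PAR2 or PAR1, had fold changes of -1.84 (adjusted p = 0.00382) and -1.38 (adjusted p = 0.00342), and the remaining calls of the 9 were F12, PROCR and KLK14. The PROCR call held in 14 of 25 alternatives and was lost with the replicate block (adjusted p = 0.0505). KLK14 was well above background on 1 of the 8 arrays and had a fold change of -0.14 with normexp. On the other side, SERPINC1, the gene of antithrombin, was higher by 2.39 (adjusted p = 0.000318) but 2 of 4 siControl arrays were not well above background, which leaves its size uncertain, and it was 1.02 with normexp. F7, the partner of tissue factor, was higher by 1.08 (adjusted p = 0.0381) and PROC, the gene of protein C, by 1.03 (adjusted p = 0.00177). The F7 call held in 14 of 25 alternatives. PROC, too, was dim on 2 of 4 siControl arrays, was 0.45 with normexp, and lost its call with spike-in scaling and with the mean over its probes. The thrombin gene F2 itself was near background, with a fold change of 0.10 (adjusted p = 0.771).

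Downstream of the receptors, 26 signalling genes were tested, of which 4 were lower and 6 higher (38.5%, against 26.4% of all genes), with a median of 0.07. The G protein alpha subunit genes GNA11 and GNAI2, whose products couple PAR1 to phospholipase C and to the inhibition of adenylyl cyclase, had fold changes of -1.42 (SE 0.12, limma adjusted p = 0.000118) and -1.34 (SE 0.10, adjusted p = 6.10e-05). GNAI2 read 13.93, 13.78, 13.92 and 13.96 after siGATA2 and 15.35, 15.24, 15.19 and 15.15 in siControl cells, and GNA11 read 9.89, 9.84, 9.66 and 9.47 against 11.16, 11.18, 11.03 and 11.15. Both passed in all 25 alternatives. The related subunit genes GNAQ at 0.15 (adjusted p = 0.643), GNA12 at 0.07 (adjusted p = 0.754) and GNA13 at 0.27 (adjusted p = 0.393) did not pass. Nor did GNAI1 at -0.93 (adjusted p = 0.225) and GNAI3 at -0.17 (adjusted p = 0.619). BICD1, an adaptor that binds the tail of PAR1, was higher by 1.43 (adjusted p = 0.000757) and the protein kinase C gene PRKCA by 1.25 (adjusted p = 0.000165), and each lost its call in 1 of 25 alternatives, the spike-in scaling of all 8 arrays.

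Of 13 tested genes known to be induced through PAR1, 2 were higher and none lower (15.4% called, against 26.4% of all genes), and the median was 0.68. Only 4 of the 13 were well above background on all 8 arrays, so the median includes many dim probes and is a description. CCN1, a secreted matrix protein, read 15.47, 15.67, 14.34 and 14.37 after siGATA2 and 11.47, 11.35, 11.23 and 11.31 in siControl cells, a fold change of 3.62 (SE 0.32, limma adjusted p = 0.000152). CCN2, its close relative, was higher by 4.57 (SE 0.43, adjusted p = 0.000201), with 2 of 4 siControl arrays not well above background, so the size of its fold is uncertain, and it was 2.37 with normexp. Within the siGATA2 group both had higher values on arrays lettered A and B than on E and F, as PLAU did. Unlike PLAU, they did not stand out on the siControl array lettered B. There CCN1 read 11.47 against 11.23 to 11.35 on the other siControl arrays, and CCN2 read 3.11 against 3.91 to 4.28. The immediate early genes FOS and EGR1 had fold changes of 2.79 (adjusted p = 0.221) and 0.80 (adjusted p = 0.206) and did not pass. Both fold changes lean on siGATA2 array 1. There FOS read 11.32, against 7.23, 5.10 and 5.07 on the other siGATA2 arrays, and EGR1 read 9.57, against 8.01, 7.67 and 7.76.

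**Figure D4:**
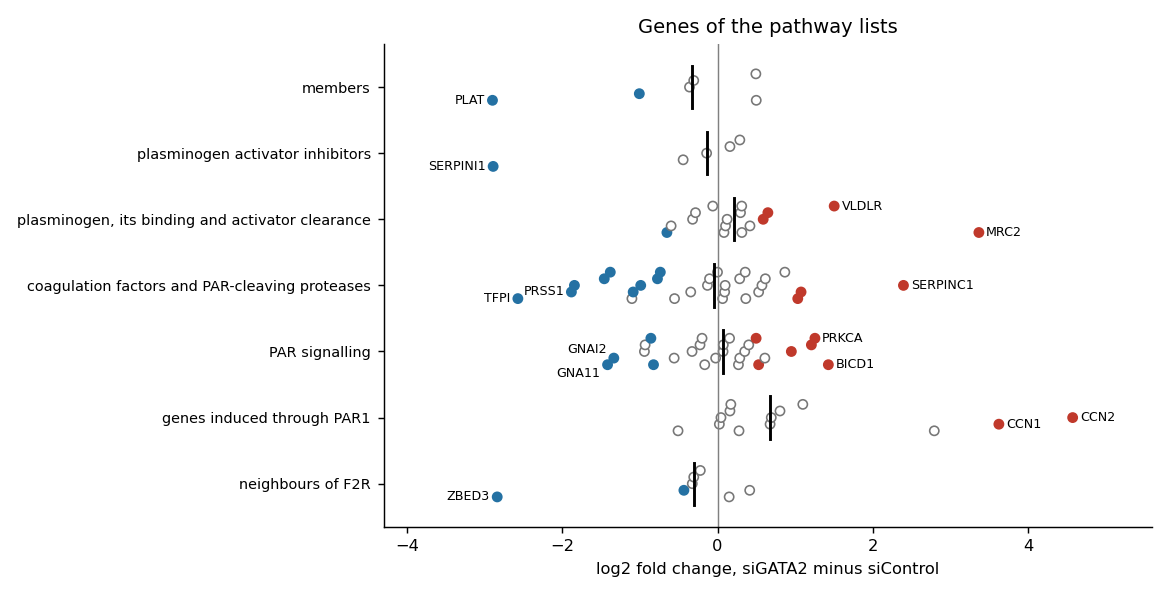
Log2 fold change (horizontal axis, siGATA2 minus siControl) of the tested genes of each list, one circle per gene, filled where the adjusted p was under 0.05, with a black bar at the median of the list. Each list held called and uncalled genes, and the PAR1-induced genes CCN1 and CCN2 lie farthest to the right.

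F2R lies on chromosome 5 between F2RL2 and F2RL1 in the RefSeq gene order, and its 5 protein-coding neighbours on each side were read for comparison. Of these 10 genes 7 could be tested, and 2 were lower and none higher (28.6% called, against 26.4% of all genes). ZBED3, the farthest on the F2RL1 side, fell by 2.84 (SE 0.23, limma adjusted p = 0.000107), from 12.90 to 10.07. POC5 fell by 0.43 (adjusted p = 0.0252), a call that held in 13 of 25 alternatives. SV2C, IQGAP2, S100Z and AGGF1, together with F2RL1, ranged from -0.33 to 0.41 and did not pass.

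The genes whose values were most like those of F2R over the 8 arrays, among 13174 other genes measured on all arrays, were LIMK1, RSC1A1, IL17RD, PEX26 and GNL3, with Pearson's r from 0.997 to 0.999. Since the 2 groups differ in F2R, a gene with a similar group difference has a high r. With the group means removed, r was 0.92 to 0.97. These genes were picked for a high r on the same values, so this r is a description and no separate evidence. The 8 arrays also share their normalisation. The fold changes of these genes were -1.50 for LIMK1, a kinase that acts on cofilin and the actin skeleton, -0.79 for RSC1A1, -2.0 for IL17RD, -1.46 for PEX26 and -0.43 for GNL3, against -1.01 for F2R.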

How the data were processed

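Total RNA of 8 LNCaP samples was labelled with Cy3 and hybridised to one-colour Agilent arrays, all on 1 slide. The authors deposited the intensity of every spot as Feature Extraction 11.0.1.1 wrote it, with quality flags, and a matrix of log2 values, which was used as an alternative. Spots without outlier flags were averaged per probe, and log2 processed signals were quantile-normalised over the 8 arrays as in the methods of the study. Unannotated probes (1914) and probes with a mean log2 under 3 were left out, and a gene took the values of its brightest probe. Groups were compared with limma 3.58.1 in R 4.3.3 (lmFit, eBayes, Benjamini-Hochberg, tested on simulated data), and single members also with exact permutation tests. A probe was well above background on an array if the flag was set for most of its spots without outlier flags. No depth applies to arrays, and 4 arrays a group limit the precision. The limma tests and intervals take each array as an independent unit. For GATA2, PLAU and F2RL1 the siGATA2 arrays lettered A and B read alike, as did E and F, and the pairs lay apart. Whether the 4 arrays are independent was not tested.

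Groups and replicate numbers came from the labels. The members, the gene lists and the rule for named genes (the members, GATA2, the neighbours of F2R, the 5 genes most like it, and in each list the 2 largest calls in each direction measured on every array of a group) were chosen with earlier results of these data known. Alternatives covered scaling, background correction, filters, probe choice, test, weights, blocks and left-out arrays. Those on title letters, and spike-in scaling without siControl array 1, were chosen after seeing the data. Sequences came from RefSeq windows, GRCh38.p14. A gene of the inhibitor list is not reported here.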

Additional observations from a re-analysis of the deposited data

Results flagged for a closer look

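In 20 groups of 4 arrays, 2 held an array far from the other 3, where chance flags about 1 in 20. On siControl array 1 F2RL3 read 11.27 against 10.51 to 10.60 on the other siControl arrays, a gap of 0.885 of the range of the group, and PLAU read 8.83 against 6.94 to 7.11, a gap of 0.908; both exceed the 95% critical value of Dixon's test. That array had the lowest spike-in signal and is the siControl array whose title carries a B.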

How the results depend on the processing

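Of 149 member values under the alternatives, 137 kept their direction and their side of the threshold, 2 lost and 6 gained a call, and 4 changed sign. With E1A spike-in scaling F2R was -1.57 (adjusted p = 0.0670) and F2RL3 -0.13, 1 member (PLAT) was called lower, and 1874 genes were lower and 139 higher, all of the latter by at least 2-fold. The share of calls that were lower was then 93.1%, against 53.3% as reported. Without siControl array 1 the same scaling gave 1759 higher genes, with 71.1% of calls lower. Without normalisation F2R was -0.94 (adjusted p = 0.0528) and PLAUR 0.041, 1 member was lower, and 1571 genes were lower and 1594 higher, and with the 75th percentile PLAUR was 0.014. The well above background filter left 1 member lower, F2R. Normexp gave 825 genes higher by at least 2-fold. Members called higher numbered 1 (F2RL3) with array weights, without siControl arrays 1 and 3 and with title letters as a block, and 2 (F2RL3 and PLAU) with letters D to G alone, where F2RL1 was 0.093. Genes called higher numbered 5838 with array weights (2068 by at least 2-fold), 2178 with the slide row as a block, 7172 with the title letter block and 6890 with letters D to G alone. Leaving out each array in turn left 2 members lower and 0 to 1 higher, with F2R from -1.05 to -0.97, 3211 to 4411 genes lower, 2591 to 3975 higher, 1880 to 2168 lower by at least 2-fold and 1116 to 1536 higher by at least 2-fold. The cause of these changes was not tested.

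Arrays of the same number did not deviate together in every pair (r of 0.52, -0.30, 0.16 and 0.18, with 1 of 4 siGATA2 arrays closest to its own number), so the numbers were not taken as pairs. With the replicate block F2R was -1.01 (adjusted p = 0.00803) and PLAT -2.90 (adjusted p = 0.00466), and 3665 genes were lower and 3331 higher. A block for the slide was not run, as there was 1 slide. Dim probes limit F2RL2, F3, PLAUR and the siGATA2 level of PLAT.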
